A study of Mus musculus with 8 samples.

Results

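The nuclei described here are endothelial nuclei of the adult mouse heart in which at least 2 of 5 marker genes, Lhx6, Kirrel3, G630055G22Rik, Rasa4 and Car8, were detected. They are called members. A nucleus entered the endothelial gate if it had 200 or more genes, under 5% mitochondrial UMIs, under 2% of UMIs from the cardiomyocyte genes Ttn, Ryr2 and Trdn, no UMI of Pdgfra, Csf1r or Rgs5, and at least 1 UMI of Flt1 or Ptprb, both endothelial genes. Members also had at most 1 of the arterial genes Sema3g, Gja5, Mannr and Stmn2 detected, and at most 1 of the endocardial genes Npr3, Cytl1 and Tmem108. There were 1500 members among 9096 gated nuclei, of 37767 nuclei that passed the filters on genes and mitochondrial UMIs and 44839 deposited barcodes. A UMI (unique molecular identifier) stands for 1 captured RNA molecule, and CPM below scale the UMIs of the summed nuclei to a common total, as is usual.

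Heart endothelium lines a vascular tree that runs from arteries through a dense capillary bed to veins, and each zone keeps its own transcriptional programme. Arterial endothelium depends on VEGF and Notch signalling and the SOXF factors, whereas the nuclear receptor encoded by Nr2f2 (COUP-TFII) represses Notch genes and holds venous identity. Along the same axis, ephrin-B2 (Efnb2) marks the arterial side and its receptor Ephb4 the venous side. The markers come from unrelated families. Lhx6 encodes a LIM-homeodomain transcription factor best known from cortical interneurons, Kirrel3 an immunoglobulin-type adhesion molecule of the nephrin family, Rasa4 a calcium-responsive GTPase-activating protein for Ras, and Car8 a carbonic anhydrase-related protein without enzyme activity that binds the inositol trisphosphate receptor. G630055G22Rik is a long non-coding RNA.

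The series holds droplet libraries of nuclear RNA from adult hearts of wild-type mice without a transgene (nTg) and of mice that express the cell-cycle gene Ccna2, for cyclin A2, constitutively from a transgene (Tg), in both sexes. The labels give no strain, age, promoter of the transgene or number of hearts per library. Of 8 libraries, 5 had a matrix of their own: the library nTg female 1, then Tg female 1 with Tg female 2 and, of the males, Tg male 1 with Tg male 2. This order is kept below wherever 5 values follow each other. The matrices of the other 3 (nTg female 2, nTg male 1 and nTg male 2) held the same values as those of Tg female 2, Tg male 1 and Tg male 2 and were not analysed here. Nothing in the labels says whether libraries of a group came from separate animals, so p-values measure only the spread between these libraries. Total depth ran from 25045167 to 38593706 UMIs per library, and any pair of libraries shared 14 to 28 cell barcodes. Ccna2 went against 2 labels: over all nuclei that passed, it had 5231 UMIs in the library labelled nTg female 1 and 27 in the library labelled Tg female 1, against 6149, 3007 and 2091 in the other 3. Libraries are therefore named by their labels only. The single library labelled nTg enters no test of genes.

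Promoter windows of 7 start sites are shown because they belong to the marker genes and to genes outside the rule that set members apart below: Col13a1 and Gm5127, among the highest ratios, and Nr2f2, the venous regulator. The windows are those of RefSeq on GRCm38.p6, from 250 bases before to 50 after the start site, each 5′ to 3′ on the gene's strand. Capitals mark matches, on either strand, to 6 short motifs: the ETS motif CCGGAAG, the homeobox core TAATTA, the KLF motif CCACCC, the SOX motif ACAAAG, the AP-1 motif TGACTCA and the TATA motif TATAAA. Of the 5 markers, 2 had a window, Lhx6 with 3 start sites and Rasa4 with 1. Kirrel3, Car8 and G630055G22Rik are named only.
Lhx6, chr2:36104011-36104310, minus strand: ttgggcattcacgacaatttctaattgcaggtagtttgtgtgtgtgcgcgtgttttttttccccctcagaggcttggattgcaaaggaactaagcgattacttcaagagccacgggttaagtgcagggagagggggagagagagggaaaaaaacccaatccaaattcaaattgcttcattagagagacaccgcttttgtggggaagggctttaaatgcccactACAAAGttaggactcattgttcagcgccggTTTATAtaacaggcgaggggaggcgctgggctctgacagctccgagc
Lhx6, chr2:36104484-36104783, minus strand: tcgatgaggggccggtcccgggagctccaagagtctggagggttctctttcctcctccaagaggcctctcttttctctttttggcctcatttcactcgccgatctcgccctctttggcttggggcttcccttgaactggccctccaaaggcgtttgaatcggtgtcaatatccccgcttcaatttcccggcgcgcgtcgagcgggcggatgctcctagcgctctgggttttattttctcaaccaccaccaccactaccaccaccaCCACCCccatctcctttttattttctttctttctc
Lhx6, chr2:36105359-36105658, minus strand: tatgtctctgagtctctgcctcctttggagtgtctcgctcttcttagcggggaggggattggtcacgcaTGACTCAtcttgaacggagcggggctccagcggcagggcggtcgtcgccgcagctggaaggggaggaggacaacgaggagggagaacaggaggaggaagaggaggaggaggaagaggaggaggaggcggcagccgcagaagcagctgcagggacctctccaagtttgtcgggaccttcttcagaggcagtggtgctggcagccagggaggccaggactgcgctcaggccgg
Rasa4, chr5:136083666-136083965, plus strand: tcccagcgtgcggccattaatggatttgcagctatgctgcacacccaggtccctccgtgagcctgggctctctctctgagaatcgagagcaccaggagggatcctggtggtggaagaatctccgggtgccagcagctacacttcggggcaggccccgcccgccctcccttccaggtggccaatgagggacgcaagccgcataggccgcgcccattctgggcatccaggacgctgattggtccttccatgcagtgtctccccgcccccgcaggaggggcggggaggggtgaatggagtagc
Col13a1, chr10:61979059-61979358, minus strand: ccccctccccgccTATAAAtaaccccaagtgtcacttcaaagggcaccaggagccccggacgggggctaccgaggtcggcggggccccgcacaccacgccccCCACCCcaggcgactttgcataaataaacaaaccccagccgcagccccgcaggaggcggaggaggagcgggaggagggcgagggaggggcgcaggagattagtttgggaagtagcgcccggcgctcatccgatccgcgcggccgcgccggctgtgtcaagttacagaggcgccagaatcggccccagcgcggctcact
Gm5127, chrX:106582936-106583235, plus strand: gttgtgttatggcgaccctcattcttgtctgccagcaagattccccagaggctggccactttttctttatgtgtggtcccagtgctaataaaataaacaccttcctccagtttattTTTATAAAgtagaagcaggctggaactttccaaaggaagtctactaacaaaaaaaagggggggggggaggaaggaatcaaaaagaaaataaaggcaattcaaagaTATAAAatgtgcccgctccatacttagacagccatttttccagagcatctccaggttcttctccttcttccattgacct
Nr2f2, chr7:70366697-70366996, minus strand: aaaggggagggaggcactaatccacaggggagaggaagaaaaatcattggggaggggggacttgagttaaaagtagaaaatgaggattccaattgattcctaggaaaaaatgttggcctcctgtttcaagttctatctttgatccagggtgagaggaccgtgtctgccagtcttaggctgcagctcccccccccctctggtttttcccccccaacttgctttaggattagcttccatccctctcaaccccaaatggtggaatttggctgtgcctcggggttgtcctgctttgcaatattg

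The 3 windows of Lhx6 held a SOX match, a TATA match that reads TTTATA on this strand, a KLF match and an AP-1 match, while the window of Rasa4 held none of the 6. Among all 32851 windows of the same length, 18.7% held the SOX letters, 13.6% TATA, 31.5% KLF, 5.2% AP-1, 8.86% ETS and 5.29% the homeobox core. In the window of Gm5127, 1 of the TATA matches overlapped another on the opposite strand. Neither the ETS nor the homeobox letters occurred in any of these 7 windows. Base composition differed between them, from 42.3% G or C in Gm5127 to 68.0% in Col13a1, beside a median of 52.7% over all windows. Of the 15 genes with the highest ratios named below, 10 had a window, and of the 10 with the lowest, 8. A match is only a run of letters in the window.

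The 5 markers lie on 5 chromosomes. On GRCm38, Lhx6 spans chr2:36081953-36105408 on the minus strand and Kirrel3 chr9:34485894-35036716 on the plus strand. Rasa4 lies at chr5:136083916-136111860, Car8 at chr4:8143362-8239041, and G630055G22Rik, by RefSeq, at chr18:47922841-48107980. All values of these genes describe how the members were chosen. The comparison population below, called the remaining endothelium, is the 5108 gated nuclei that were not members and had fewer than 2 of the listed arterial, endocardial or lymphatic genes. Nuclei with 2 or more of the 4 arterial genes (994, arterial-like) and with 2 or more of the 3 endocardial genes (992, endocardial-like) served as further comparators.

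Lhx6 was detected in 45.9%, 38.4%, 40.4%, 41.4% and 50.6% of members in the 5 libraries, and in 2.81 to 4.87% of the remaining endothelium. Its level was 215, 217, 247, 222 and 282 CPM in members and 16.1 to 23.7 CPM in the remaining endothelium. Kirrel3 stood at 874, 767, 597, 969 and 673 CPM in members and 32.8 to 103 CPM in the remaining endothelium. Kirrel3 is not particular to these nuclei, since it was detected in 20.5 to 40.7% of endocardial-like nuclei, at a mean of 266.5 CPM. G630055G22Rik had 196, 339, 141, 322 and 218 CPM in members and 3.8 to 11.7 CPM in the remaining endothelium, with 360 of the 1500 members holding a UMI. Rasa4 had 227, 290.0, 243, 261 and 288 CPM in members and 24.1 to 34.2 CPM in the remaining endothelium. For each of these 4 genes the lowest library of members was above the highest of the remaining endothelium.

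Car8 was the most widely detected marker and the least selective. It was found in 79.0 to 85.1% of members, 23.6 to 35.2% of the remaining endothelium, 46.9 to 61.6% of endocardial-like and 5.65 to 14.8% of arterial-like nuclei. Its level was 549, 826, 653, 618 and 708 CPM in members and 174 to 328 CPM in the remaining endothelium, a log2 ratio of 1.62 ± 0.20 (SD, n = 5 libraries) where Lhx6 had 3.50 ± 0.24, Kirrel3 3.61 ± 0.54, Rasa4 3.08 ± 0.26 and G630055G22Rik 4.66 ± 0.26. These ratios, here and below, are of CPM + 1. A total of 1232 members held Car8, and the commonest pair was Kirrel3 with Car8, in 563 members. Just these 2 markers were detected in 264 members, and both genes were also frequent in endocardial-like nuclei. A single endocardial gene of the rule was detected in 138 members. Whether some members are endocardial nuclei in which the other endocardial genes were missed was not tested. Neither Lhx6 nor Kirrel3 was detected in 333 members (22.2%), so the name of these nuclei covers 1167 of them directly.

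Most members sat close to the threshold of the rule. Exactly 2 markers were detected in 1011, 3 in 368, 4 in 107 and all 5 in 14. Just outside the rule lay 2884 gated nuclei with 1 marker, and a further 207 with 2 or more markers were left out by the arterial or endocardial limit. Members were also deeper, with a median of 1944.5 to 2583 UMIs per library beside 1632 to 2137 in the remaining endothelium. The markers were also taken 1 at a time, each in nuclei chosen by the other 4. Gated nuclei with 2 or more of the listed arterial, endocardial or lymphatic genes were left out on both sides. Lhx6 was then found in 20 to 33.3% of nuclei with 2 or more of the others and in 8.06 to 11.5% of the rest. For Kirrel3 the shares were 22.8 to 36.7% and 8.21 to 14.6%, for G630055G22Rik 8.51 to 19.4% and 2.16 to 5.08%, for Rasa4 19.8 to 28.2% and 6.75 to 12.3%, and for Car8 52.1 to 68.4% and 32.9 to 44.9%. Each of the 5 was higher in all 5 libraries. The left-out marker was then read in nuclei thinned to 1000 UMIs, which left out 19 members and 291 remaining nuclei. The nuclei were still chosen at full depth. The order held in all 5 libraries for each marker, with Lhx6 at 11.9 to 15.3% against 5.03 to 6.0% and Kirrel3 at 16.2 to 25.7% against 6.07 to 10.2%. The 5 markers were chosen with earlier results of these data known, so these shares describe the choice and are no independent support for it.

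Members made up 281 of 1595, 383 of 2234, 208 of 1481, 377 of 2072 and 251 of 1714 gated nuclei, or 17.6%, 17.1%, 14%, 18.2% and 14.6%. The highest and the lowest share came from a male and a female library, both labelled Tg. The mean was 16.3 ± 1.86% (SD, n = 5), and of all nuclei that passed, members were 2.97 to 4.75%. Exact 95% binomial intervals of single libraries, which cover counting error only, reached from 12.3 to 15.9% in Tg female 2 and from 16.6 to 19.9% in Tg male 1. The share was 15.6 ± 2.19% in the 2 Tg female and 16.4 ± 2.51% in the 2 Tg male libraries, a difference of −0.825 percentage points that lay within the spread of either group (exact permutation test, two-sided, p = 0.667, where 2 against 2 can give no smaller p than 0.33). The difference was −3.90 points when nuclei with 2 or more fibroblast, macrophage or Schwann UMIs were left out, which removed most members of Tg female 2. It turned to 0.725 points without Tg female 2 and to 0.950 without Tg male 1. Adding the library labelled nTg female 1 to the females gave −0.151 points (exact permutation p = 1).

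Among 8075 genes with at least 20 CPM in members or in the remaining endothelium, 826 (10.2%) were higher in members in all 5 libraries and 846 (10.5%) lower. A difference of 2-fold or more in all 5 was rare, with 16 genes (0.198%) higher and 30 (0.372%) lower. These figures describe the populations and carry no test, because members were chosen by genes of the same nuclei. In sums over nuclei, fewer nuclei with a transcript and less of it per nucleus cannot be told apart. Genes outside the rule were named if they had one of the 15 highest or the 10 lowest ratios that held in all libraries.

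The most even of the high genes was Il1r1 (chr1:40225080-40317257), the signalling receptor for interleukin-1. Its level was 376.5, 298, 275, 315 and 278 CPM in members and 123, 86.1, 82.0, 107 and 84.8 CPM in the remaining endothelium. The 2 populations did not overlap, and the log2 ratio of 1.67 ± 0.09 (SD, n = 5) was nearly the same in every library. A UMI of Il1r1 was seen in 35.9 to 51.6% of members, 12.2 to 19.4% of the remaining endothelium and 6.38 to 10.7% of arterial-like nuclei. Arterial-like nuclei averaged 40.1 CPM and endocardial-like nuclei 99.3 CPM, both below every library of members.

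Several other high genes were lower in arterial-like and endocardial-like nuclei than in every library of members. Col13a1 (chr10:61838236-61979108) encodes a transmembrane collagen. It had 53.8, 64.1, 33.9, 99.1 and 89.7 CPM in members and 9.3 to 15.9 CPM in the remaining endothelium, a log2 ratio of 2.49 ± 0.54 (SD, n = 5). Samd5, a gene for a sterile alpha motif protein, had 166, 338, 183, 211 and 234 CPM in members, 46.5 to 96.3 CPM in the remaining endothelium and a mean of 10.0 CPM in arterial-like nuclei. Piezo2, a mechanically gated cation channel best known from sensory neurons, had 65.7, 133, 77.7, 69.5 and 58.8 CPM against 12.0 to 40.4 CPM. Each of these 3 genes was higher in members in every library. Piezo2 averaged 2.6 CPM in arterial-like and 3.5 CPM in endocardial-like nuclei.

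Gm5127 and Cysltr1, the latter a receptor for cysteinyl leukotrienes, overlap on opposite strands of chromosome X over 20.5 kb. Gm5127 had 143, 172, 177, 144 and 166 CPM in members and 32.3 to 45.9 CPM in the remaining endothelium (log2 ratio 2.04 ± 0.18, SD, n = 5). Cysltr1 had 96.8, 108, 61.7, 64.8 and 105.8 CPM in members and 21.4 to 24.3 CPM in the remaining endothelium (1.83 ± 0.42). Whether reads were counted by strand is not given in the sources used here, so the signals of the pair cannot be told apart. Thsd7a, for a membrane protein with thrombospondin domains, was broader, at 776, 816, 372, 739 and 569 CPM in members and a mean of 566 CPM in arterial-like nuclei. Its log2 ratio to the remaining endothelium was 1.12 ± 0.15. Others among the 15 were Myrip (1.28 ± 0.21), AU021092 (1.27 ± 0.11), Spock2 (1.13 ± 0.18), 2010001K21Rik (1.92 ± 0.31) and 2310002F09Rik (1.09 ± 0.15). Myrip was detected in 28.4 to 49.5% of arterial-like nuclei and 19.3 to 34.2% of members, with the larger share in arterial-like nuclei in every library. Its share was also larger in endocardial-like nuclei, except in Tg female 2. AU021092 was commoner in arterial-like nuclei than in members in nTg female 1 and Tg male 1, and Spock2 in endocardial-like nuclei in Tg male 1. In all other cases among these genes members had the larger share.

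Reln, a secreted glycoprotein typical of lymphatic endothelium, also ranked among the high genes, with a log2 ratio of 2.87 ± 0.66 (SD, n = 5). It rested on few nuclei: 27 members held a UMI of Reln. Without the 18 members that had 2 or more of the lymphatic genes Mmrn1, Prox1 and Reln, a limit the comparator already had, the ratio turned to −0.87, and that of Mmrn1, another lymphatic gene, from 2.31 to −1.23.

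**Figure D1:**
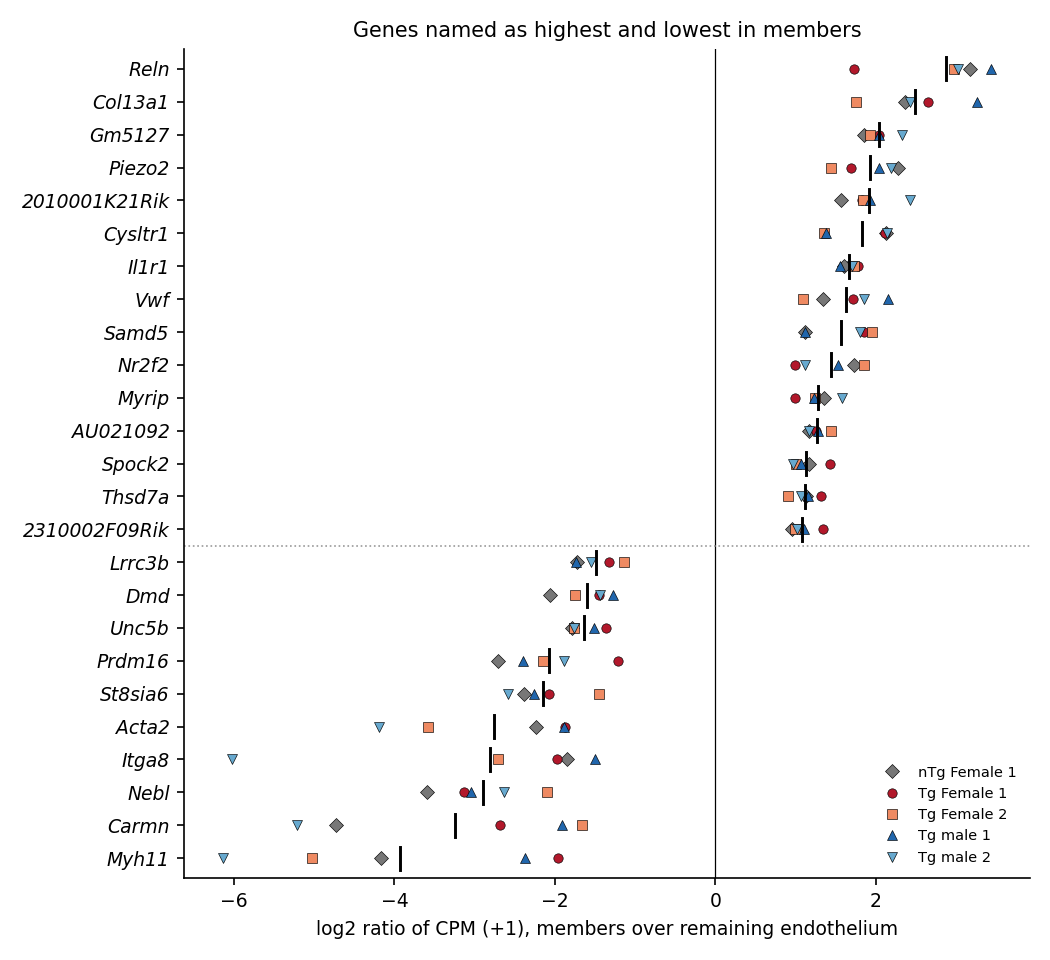
log2 ratio of CPM + 1 in members over the remaining endothelium (horizontal axis) for 25 named genes, 15 of high and 10 of low ratio, 1 point per library, with a bar at the mean. Il1r1 is the tightest of the high genes at 1.67 ± 0.09 (SD), Reln rests on 18 nuclei with lymphatic genes, and the low ratios of Myh11, Acta2, Carmn and Itga8 go with smooth muscle UMIs in the comparator.

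The vein-type gene list held 15 genes that reached 20 CPM. In members 10 of them were higher in all 5 libraries and 2 lower, beside 10.2% and 10.5% of all 8075 genes. Their median log2 ratio was 0.48, beside −0.01 over all genes. Against arterial-like nuclei 7 of the 15 were higher and 3 lower (median 0.65), where 20.5% and 10.3% of all genes were. Against endocardial-like nuclei 4 were higher and 6 lower (median −0.41), where 23.4% and 12.5% of all genes were. The higher venous genes thus set members apart from the remaining endothelium and not from endocardial-like nuclei. Nr2f2 (chr7:70351944-70366735), the venous regulator, had 180.5, 146, 119, 179 and 129 CPM in members and 53.8, 72.6, 32.3, 61.1 and 58.8 CPM in the remaining endothelium, and the 2 ranges did not overlap. Its log2 ratio was 1.45 ± 0.37 (SD, n = 5). Arterial-like nuclei averaged 10.8 CPM of Nr2f2 and endocardial-like nuclei 181 CPM, so members stood near the endocardial level. The receptor Ephb4 had 237, 261, 223, 229 and 345 CPM in members and 143 to 204 CPM in the remaining endothelium, a smaller log2 ratio of 0.60 ± 0.11.

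Von Willebrand factor (Vwf), a clotting protein stored by endothelium of larger vessels, had 269, 343, 145, 337 and 287 CPM in members and 67.2 to 105 CPM in the remaining endothelium, a log2 ratio of 1.64 ± 0.42 (SD, n = 5). It was far higher in endocardial-like nuclei, at a mean of 1401 CPM, and against all gated nuclei that were not members the ratio turned to −0.20. The adhesion molecules Vcam1 (0.67 ± 0.47) and Icam1 (0.48 ± 0.47), the apelin receptor Aplnr (0.48 ± 0.24), Emcn (0.33 ± 0.08), Nrp2 (0.24 ± 0.16) and the leptin receptor Lepr (0.43 ± 0.29) were also higher in all 5 libraries. Bgn (−0.28 ± 0.11) and Mgp (−0.46 ± 0.33) were lower in all 5. Other genes of the venous list were at or near 0 in members: Ackr1 had 0 to 4.8 CPM, Selp 3.6 to 9.5 CPM and Sele 0 to 2.0 CPM. Their levels in the other populations are not given here, so these low values are not read as a trait of members.

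Arterial genes lay on the other side. The rule itself used Sema3g, Gja5, Mannr and Stmn2. Of the 15 further arterial genes at 20 CPM, 11 were lower in members in all 5 libraries and 2 higher, with a median log2 ratio of −1.09. Of all 8075 genes, 10.5% were lower and 10.2% higher in this way. Unc5b, a netrin receptor of arteries and sprouting vessels, had 17.9, 45.2, 23.9, 22.2 and 19.1 CPM in members and 64.3 to 118 CPM in the remaining endothelium (log2 ratio −1.64 ± 0.19, SD, n = 5). Efnb2, the arterial partner of Ephb4, had 62.1, 94.6, 104, 102 and 88.2 CPM against 173 to 230 CPM (−1.09 ± 0.31). The Notch ligand Dll4 (−1.11 ± 0.38), the SOXF factor Sox17 (−1.04 ± 0.42) and the phosphatase Alpl (−2.62 ± 0.65) were lower in every library too. In each of these genes every library of members was below its own remaining endothelium.

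The 2 exceptions were Vegfc and Eln. Vegfc, a growth factor for veins and lymphatics, had 778, 837, 536, 563 and 503 CPM in members, 205 to 383 CPM in the remaining endothelium, a mean of 1064 CPM in arterial-like nuclei and 69.8 CPM in endocardial-like nuclei. Its log2 ratio of members to the remaining endothelium was 1.29 ± 0.34 (SD, n = 5) and that of Eln, for elastin, 0.61 ± 0.20. Against arterial-like nuclei, where 10.3% of the 8075 genes were lower in all 5 libraries, 14 of the 15 arterial genes were lower in members. Among the lowest genes outside the lists, Nebl, Prdm16 and St8sia6 were arterial by level, at means of 1672, 547 and 291 CPM in arterial-like nuclei, and had log2 ratios to the remaining endothelium of −2.90 ± 0.56, −2.07 ± 0.57 and −2.15 ± 0.43.

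Of 19 capillary genes that reached 20 CPM, 4 were higher and 8 lower in all 5 libraries, beside 10.2% and 10.5% of all genes. Their median log2 ratio was −0.07. The fatty acid transporter Cd36 had 2969, 2220.0, 1420, 3369 and 3473 CPM in members, and 3132, 1939, 1450, 3223 and 3310 CPM in the remaining endothelium. It was higher in members in 3 libraries and lower in 2 (log2 ratio 0.04 ± 0.10, SD, n = 5). Gpihbp1, which anchors lipoprotein lipase on capillaries, had a ratio of −0.15 ± 0.15. The water channel Aqp1 (0.68 ± 0.13) and the transcription factor Meox2 (0.55 ± 0.21) were higher in every library, whereas the VEGF receptor Kdr (−0.55 ± 0.17), Car4 (−0.63 ± 0.37) and Btnl9 (−1.64 ± 0.58) were lower in every library. Set against endocardial-like nuclei, 18 of the 19 capillary genes were higher in members, where 23.4% of all 8075 genes were, and against arterial-like nuclei 16 of 19, where 20.5% were. Of 16 fatty acid handling genes, 2 were higher (Fabp5 and Meox2, both also on the capillary list) and 3 lower than in the remaining endothelium, beside the 10.2% and 10.5% of all genes.

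**Figure D2:**
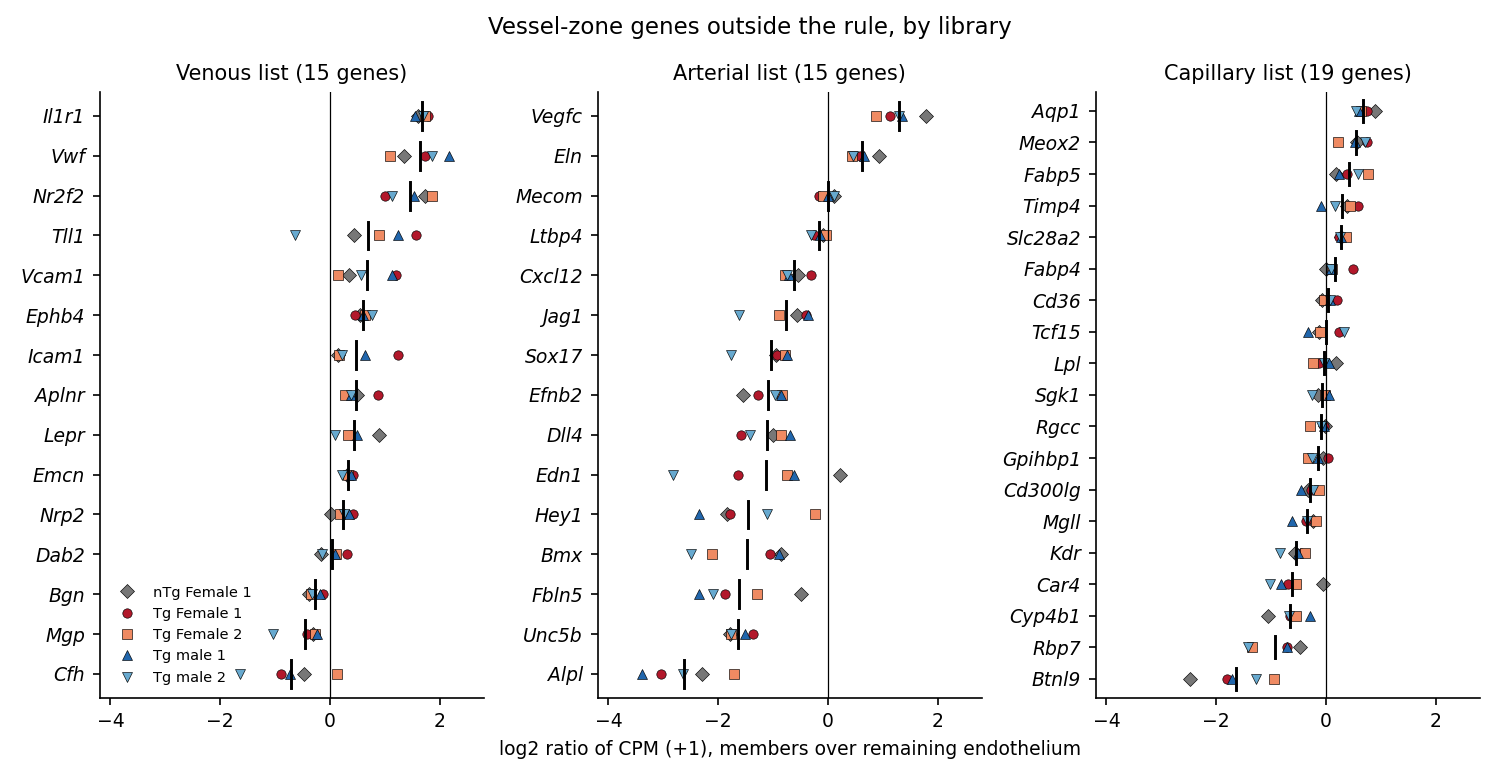
log2 ratio of CPM + 1 in members over the remaining endothelium (horizontal axis) for the venous, arterial and capillary lists without the genes of the rule, 1 point per library, with a bar at the mean. Il1r1, Vwf and Nr2f2 lead the venous list, 11 of 15 arterial genes lie below 0 in every library, and the capillary genes spread around 0.

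Of 14 pan-endothelial genes, 5 were higher and 2 lower, Eng and Ldb2, in all 5 libraries (median 0.06). List counts here stand beside 10.2% of all 8075 genes higher and 10.5% lower. The VE-cadherin gene Cdh5 had 611, 640.0, 556, 675 and 704 CPM in members, with a log2 ratio of 0.08 ± 0.04 (SD, n = 5) to the remaining endothelium, and Tek (0.35 ± 0.06) and Tie1 (0.39 ± 0.21), the angiopoietin receptor and its partner, were higher in all 5 libraries. Of the genes that respond to flow, 7 of 15 were higher in all 5 and 1 was lower (median 0.15). Among them, the flow-induced factors Klf2 (0.41 ± 0.10) and Klf4 (0.63 ± 0.23), the nitric oxide synthase Nos3 (0.36 ± 0.19), Thbd, for the anticoagulant thrombomodulin (0.70 ± 0.20), and the channel Piezo1 (0.29 ± 0.07) were higher, and Bmx was the lower one. Of 13 adhesion and inflammation genes, 5 were higher, Il1r1, Vcam1, Icam1, Icam2 and Jam2, and Irf1 was lower. Of 9 endocardial genes outside the rule, 3 were higher (Nfatc1, Vwf and Adgrg6) and 3 lower (Gata4, Tmem100 and Pkhd1l1). Against endocardial-like nuclei 1 of the 9 was higher and 7 lower, where 23.4% and 12.5% of all genes were. Adgrg6 was detected in 2.88 to 5.84% of members, 1.06 to 1.67% of the remaining endothelium and 9.88 to 30.8% of endocardial-like nuclei.

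Among 18 BMP and TGF-β genes, 2 were higher in all 5 libraries and 9 lower (median −0.17). The counts of this paragraph are read beside the 10.2% of all 8075 genes that were higher and the 10.5% that were lower. The inhibitory mediator Smad6 had 38.2, 44.1, 49.8, 34.3 and 35.3 CPM in members, 95.5 to 121 CPM in the remaining endothelium and a mean of 548 CPM in arterial-like nuclei. Id1 (−0.39 ± 0.23), Id3 (−0.35 ± 0.14) and Smad7 (−0.29 ± 0.15), targets of the pathway, were lower in every library, while the receptors Bmpr2 (0.37 ± 0.11) and Acvrl1 (0.28 ± 0.14) were higher. Of 13 Notch genes, 2 were higher (Dll1 and Jag2) and 4 lower (Dll4, Jag1, Hey1 and Mfng). None of 10 tip-cell genes was higher and 5 were lower, among them Pdgfb (−0.61 ± 0.11), Col4a1 (−0.12 ± 0.08) and Col4a2 (−0.23 ± 0.14). Basement membrane and matrix genes had 2 of 26 higher and 9 lower.

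The families of the 5 markers were counted without the markers themselves, and with so few genes a count is read beside the 10.2% of all genes that were higher and the 10.5% that were lower. Among LIM-homeobox genes and their cofactors, none of 7 other genes was higher in all 5 libraries and 2 were lower, the LIM-domain binding cofactor Ldb2 (−0.35 ± 0.11, SD, n = 5) and Lmo2. Of 9 genes related to Kirrel3 or to slit-diaphragm adhesion, 3 were higher (Magi1, Tjp1 and Fyn) and 3 lower (Cd2ap, Magi2 and Nck2). Among 9 other Ras GTPase-activating genes, 1 was higher, Rasal2, with 2409, 1521, 1209, 2228 and 2306 CPM in members and a log2 ratio of 0.38 ± 0.03. Of 2 other carbonic anhydrases at 20 CPM, the membrane-bound capillary enzyme Car4 was lower. Inositol trisphosphate and calcium genes, the pathway in which Car8 acts, had 6 of 13 higher and 2 lower, including the phospholipase gene Plcb4 (0.23 ± 0.06) and Itpr1 (0.19 ± 0.09). The endothelial transcription factors had 9 of 25 higher, among them Fli1 (0.44 ± 0.10) and Tshz2 (0.41 ± 0.05), and 6 lower. Axon guidance genes divided evenly, with 7 of 24 higher and 9 lower.

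Genes of other cell types were also measured in members. The smooth muscle genes Myh11 (log2 ratio −3.93 ± 1.76, SD, n = 5) and Acta2 (−2.75 ± 1.07) were among the lowest named genes, with Carmn and Itga8. The summed smooth muscle list was 73.7 to 201 CPM in members and 222 to 539 CPM in the remaining endothelium. A UMI of Myh11, Acta2, Tagln, Lmod1 or Carmn, a set that differs from that list, was held by 74 members and 344 of the remaining nuclei. Setting those 344 nuclei aside turned Myh11 to 2.82 and Acta2 to 3.35, since the comparator then held none by construction, so the smooth muscle ratios depend on who is compared. Pericyte genes summed to 84.9 to 150 CPM in members and 165 to 192 CPM in the remaining endothelium, with Rgs5 at 0 by the gate. Fibroblast genes reached 382 to 1738 CPM in members, macrophage genes 293 to 681 CPM and Schwann cell genes 52.8 to 304 CPM, in which Pdgfra and Csf1r were at 0 by the gate. The remaining endothelium held 917 to 1902, 405 to 634 and 125 to 348 CPM of the same lists. Nuclei with 2 or more UMIs of these 3 lists were 74.5% of members in Tg female 2 and 28.3 to 39.1% in the other 4 libraries, and Tg female 2 stood apart in the remaining endothelium too, at 70.1% beside 26.0 to 37.1%. Droplet libraries carry free RNA, and its part in these sums was not tested.

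Gated nuclei were next ordered by how many markers they held, leaving out nuclei past the arterial, endocardial or lymphatic limits. There were 2960 such nuclei with 0 markers, 2148 with 1, 998 with 2, 363 with 3 and 121 with 4 or 5, and their median depth ran from 1805 to 2688 UMIs. Nr2f2, none of the 5 markers, averaged 41.5, 73.1, 125, 175 and 200.3 CPM along this order. Il1r1 went from 73.3 through 126, 250.7 and 399.5 to 498 CPM, and Vwf from 64.5 to 466 CPM. Samd5 averaged 50.3, 107, 194, 269.9 and 388 CPM in the same order. In these 4 genes the mean over libraries climbed at every step, including the step from 1 marker (outside the rule) to 2 (inside). All 4 were named for high ratios of members to the remaining endothelium in the same nuclei. A rise from 0 or 1 marker to 2 or more was therefore set by that choice and is no further support.

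The arterial side descended along the same order. Unc5b averaged 95.4, 60.4, 26.4, 19.3 and 19.2 CPM, and Efnb2 226, 148, 92.7, 75.2 and 71.0 CPM. Lrrc3b, a leucine-rich repeat gene among the lowest ratios, went from 264 to 45.5 CPM. Unc5b and Lrrc3b were named for low ratios, so their fall across the threshold of the rule was set by that choice. Cd36 stayed between 2481 and 2763 CPM at all 5 steps, Gpihbp1 between 473 and 528 CPM and Cdh5 between 584 and 657 CPM. Ephb4 reached its plateau early, at 146, 199, 260.4, 260.9 and 235 CPM. The last step holds 8 to 38 nuclei per library, so its single values are loose: Nr2f2 there spread from 79.7 CPM in the library labelled nTg female 1 to 281 CPM in Tg female 2.

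**Figure D3:**
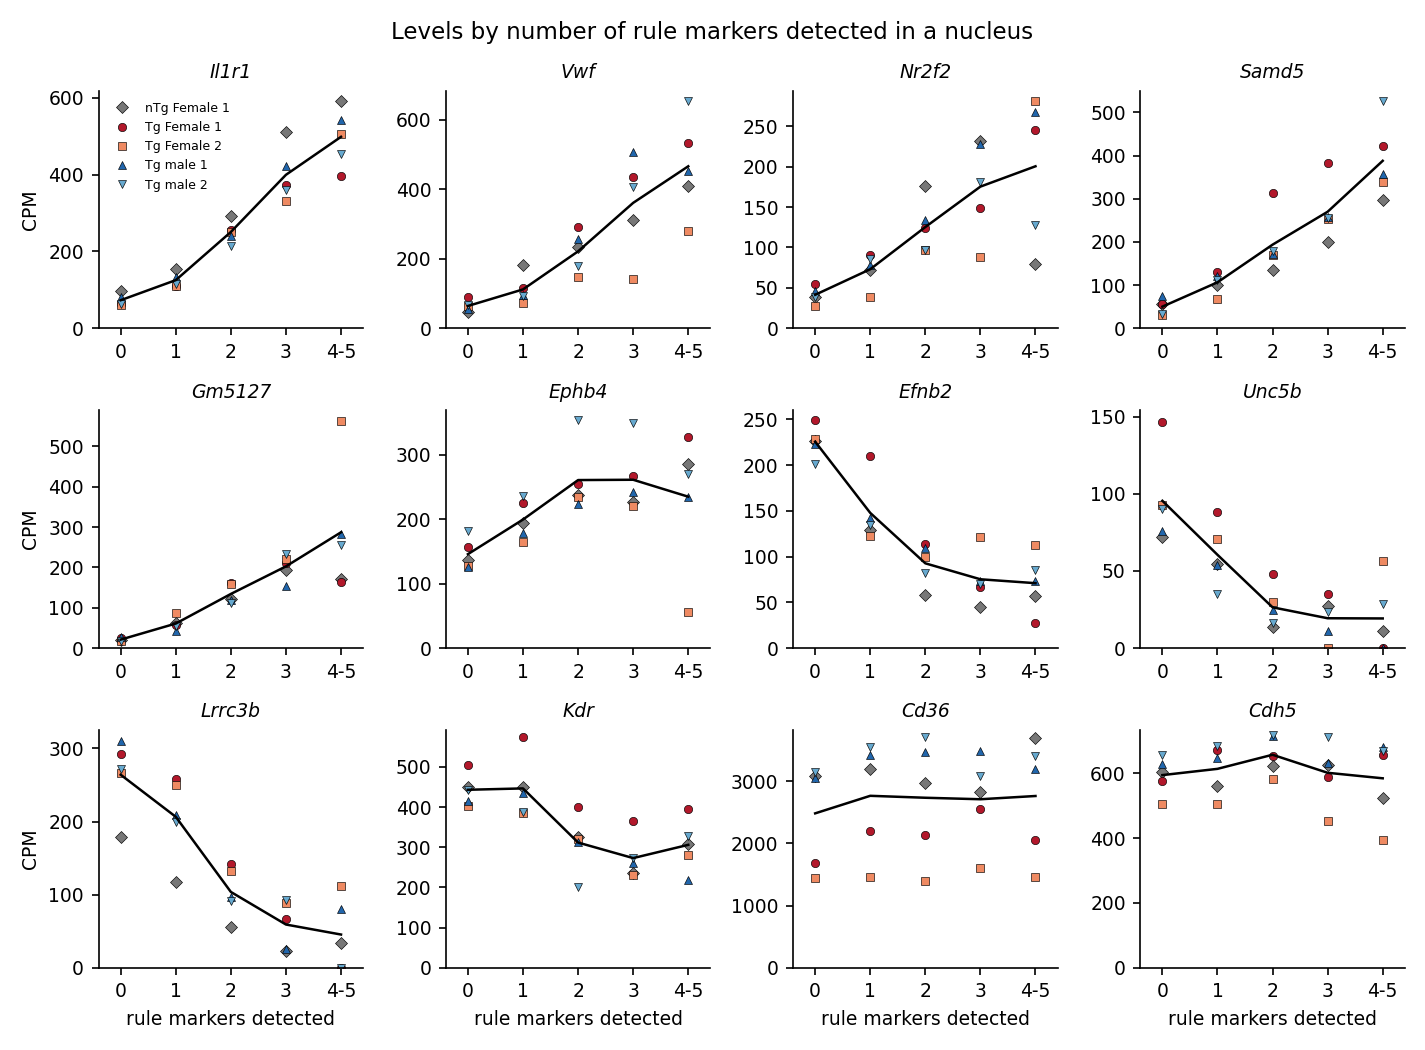
CPM (vertical axis) of 12 genes in gated nuclei by the number of rule markers detected (horizontal axis), 1 point per library and a line through the means. Il1r1, Vwf, Nr2f2, Samd5 and Gm5127 climb with each marker, Efnb2, Unc5b and Lrrc3b descend, and Cd36 and Cdh5 stay level.

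The sexes were compared within members across the 4 libraries labelled Tg, one of which, Tg female 1, had few Ccna2 UMIs, so that the female arm may not be of 1 genotype and sex cannot be told apart from that difference in it. UMIs were summed per library and tested with edgeR's quasi-likelihood test and Benjamini-Hochberg adjustment over 9667 genes. It called 40 genes (0.414%), of which 16 (0.166%) were higher and 24 (0.248%) lower in females, while 903 genes (9.34%) had an unadjusted p under 0.05. In 3778 genes (39.1%) both female libraries lay above or below both male libraries. DESeq2 called 44, of which 27 were among the 40. Leaving out a library left an arm with 1 sample, assumed to vary like the other arm, and raised the calls to 262 without Tg female 1, 237 without Tg female 2, 140 without Tg male 1 and 71 without Tg male 2. The X-inactivation transcript Xist had 1327 and 1139 CPM in the 2 Tg female libraries and 0 UMIs in the 2 Tg male libraries, at least 740-fold higher against a floor of 3 UMIs over the group. The Y-linked genes Eif2s3y and Kdm5d had 0 UMIs in female members, at least 39.9-fold and 22-fold lower by the same floor, and Uty and Ddx3y had 1 and 2 UMIs against 424 and 154. In nTg female 1 the Y-linked genes had 0 to 2.4 CPM and Xist 1101 CPM, as a female label has it. Of the genes outside the rule, Nr2f2 (edgeR adjusted p = 0.823) and Il1r1 (0.950) were not called. The 5 markers are left out here, since their levels in members are set in part by the rule.

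The autosomal difference with the smallest adjusted p was Fkbp5, a co-chaperone of the glucocorticoid receptor and a classical glucocorticoid target. It had 83.0 and 106 CPM in the Tg female libraries and 523 and 517 CPM in the Tg male libraries, with no overlap. It fell by 2.55 on the log2 scale from male to female (SE 0.22, edgeR adjusted p = 5.91e-05), and the library labelled nTg female 1 had 419.5 CPM, near the males. Zbtb16, a zinc finger repressor and also a glucocorticoid target, had 315 and 615 CPM in females, 1747 and 1527 in males and 1613 in nTg female 1 (log2 −1.89, edgeR adjusted p = 0.0105). Ddit4, a stress-induced inhibitor of mTOR signalling, had 30.5 and 51.8 CPM in females, 156 and 119 in males and 191 in nTg female 1 (log2 −1.88, edgeR adjusted p = 0.0105). These 3 were the called members of a list of 14 glucocorticoid response genes, of which 13 were tested and 9 had an unadjusted p under 0.05. The median log2 difference over the 13 was −0.66, beside 0.01 over all 9667 genes. Of all genes, 0.414% were called and 9.34% had an unadjusted p under 0.05 (edgeR).

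Of the capillary list, 3 genes were also called lower in Tg female members. Rgcc, a regulator of endothelial proliferation, had 139.7 and 153 CPM in females, 521 and 503 in males and 562 in nTg female 1 (log2 −1.87, SE 0.20, edgeR adjusted p = 0.000546). Lipoprotein lipase (Lpl) had 515 and 536 CPM in females, 1188 and 1149 in males and 1318 in nTg female 1 (log2 −1.22, edgeR adjusted p = 0.0265). The protease inhibitor gene Timp4 (log2 −1.17) completed the 3 calls among 19 capillary genes, of which 11 had an unadjusted p under 0.05 and whose median was −0.54. Over all 9667 genes, 0.414% were called, 9.34% had an unadjusted p under 0.05 (edgeR) and the median was 0.01. Outside the capillary list, Fam117b had 357 and 376 CPM in females, 1080.2 and 870.1 in males and 1281 in nTg female 1. Xdh, for the purine enzyme xanthine dehydrogenase and also outside that list, had 545 and 593 CPM against 1216 and 1340.4. Of the genes with high ratios in members, Spock2 (60.9 and 33.9 CPM in females, 153 and 191 in males, edgeR adjusted p = 0.0105) and Myrip (106 and 123 against 229 and 220.5, edgeR adjusted p = 0.0447) were called as well. No gene of the venous or arterial lists was called, over 16 and 14 genes tested, of which 4 and 1 had an unadjusted p under 0.05 (edgeR). With 0.414% of all genes called, a lack of calls in lists of this length cannot be read as a result.

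The sex differences of Fkbp5, Zbtb16, Ddit4, Rgcc, Lpl, Spock2 and Fam117b were all larger than the spread within either sex, and in each the library labelled nTg female 1 lay with the males. Over the 20 genes lower in Tg females that are not Y-linked, nTg female 1 lay nearer the male mean in 19, the exception being Myrip. Over the 14 genes higher in Tg females other than Xist and Tsix it lay nearer the male mean in 7. All these genes were chosen for a difference between Tg females and Tg males, and the same count over all tested genes is not given. The counts therefore cannot tell a likeness of nTg female 1 to the males from an effect of that choice. With 1 library labelled nTg, no test of genotype was made.

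**Figure D4:**
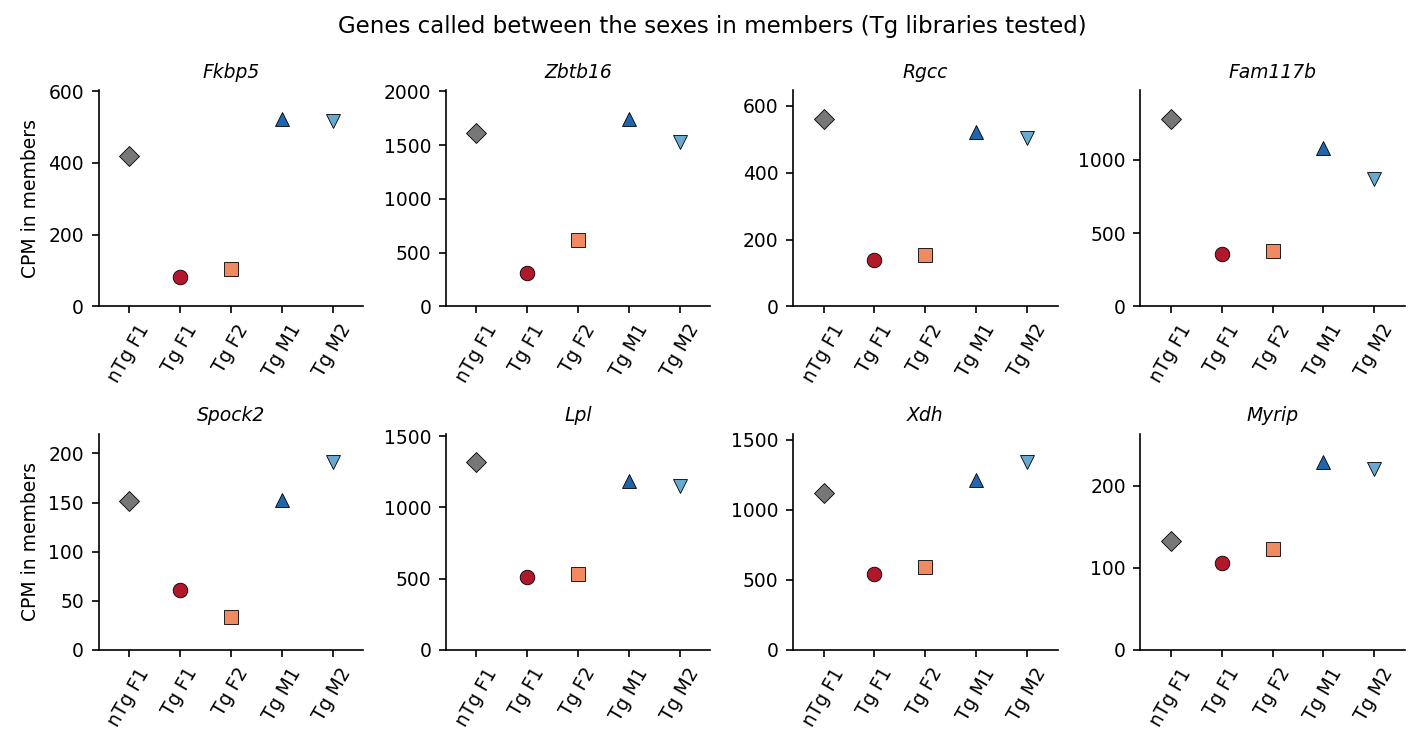
CPM in members (vertical axis) for 8 genes called lower in Tg females than in Tg males, 1 point per library (nTg F1 is nTg female 1, and Tg M1 is Tg male 1). Fkbp5 stands at 83.0 and 106 CPM in Tg females and 517 and 523 in Tg males, and in all but Myrip the library labelled nTg female 1 lies nearer the males.

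Genes higher in Tg female members included genes of fibroblasts. Col3a1, a fibroblast collagen, had 98.8 and 143 CPM in females and 22.2 and 13.2 in males (log2 2.62, SE 0.32, edgeR adjusted p = 0.00183), and Gsn, the actin-severing protein gelsolin, 290.0 and 490 against 163 and 98.5 CPM. Both belong to the fibroblast list, of which 2 of 9 tested genes were called and 7 had an unadjusted p under 0.05 (edgeR). The shares over all 9667 genes were 0.414% and 9.34%. The summed fibroblast list stood at 1177 and 1738 CPM in Tg female members, 800 and 382 in Tg male members and 917 in nTg female 1. In the remaining endothelium it stood at 1902 and 1889 CPM in Tg females and 1131 and 917 in Tg males. With the 619 members that held 2 or more UMIs of the fibroblast, macrophage or Schwann lists left out, which lowers genes of those lists by construction and kept 53 of 208 members in Tg female 2, Fkbp5 stood at −2.54, Rgcc at −1.73, Zbtb16 at −1.88 and Ddit4 at −2.15, all still called. Gsn, itself on the fibroblast list, had 0.50 there (edgeR adjusted p = 0.983). That alternative, chosen after the data had been seen, called 46 genes, with 21 of the 40 among them. Among the genes with the highest differences, Nrg1, a growth factor of endocardium, had 45 UMIs in Tg female and 1 in Tg male members, a ratio of 54.5 with an exact 95% counting interval of 9.29 to 2198 that takes UMIs as independent. Over all 5 libraries 12 members held its 59 UMIs. Trpm3, a cation channel, rested on Tg female 1, with 276 CPM there, 27.9 in Tg female 2 and 5.6 and 0 in males, and without that library its adjusted p was 0.146 (edgeR).

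Whether the sexes differed more in members than elsewhere was tested as the interaction of sex and population, over members and the remaining endothelium of the 4 Tg libraries and 12491 genes. It called 18 genes (0.144%), 13 with a more positive and 5 with a more negative difference in members, and 657 (5.26%) had an unadjusted p under 0.05, whereas DESeq2 called 0. The count was 62 without Tg female 1, 25 without Tg female 2, 35 without Tg male 1 and 13 without Tg male 2. Fkbp5 (interaction −0.40, edgeR adjusted p = 0.876), Zbtb16 (−0.09, adjusted p = 0.998), Rgcc (−0.09, adjusted p = 0.998) and Lpl (−0.19, adjusted p = 0.949) were not called, so no difference in their sex effect between members and the remaining endothelium was shown. Fkbp5 in the remaining endothelium was 69.0 to 384 CPM over the libraries. The called genes include the macrophage genes F13a1 (2.59) and Mrc1 (1.97), and the summed macrophage list was 541 and 681 CPM in Tg female and 346 and 332 in Tg male members beside 421, 634, 441 and 502 in the remaining endothelium. When nuclei with 2 or more UMIs of the 3 lists were left out on both sides, 11 genes were called. Of the 18, only Sox5os4, Igfbp5, Gpc6, Sema3d and Syn3 passed the filter on low counts there, and none of these 5 was called. Leaving those nuclei out lowers macrophage genes by construction and kept 53 of 208 members in Tg female 2. The part of macrophage RNA in the 18 calls was not tested.

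Among genes at 50 CPM or more in members, the share that stood 2-fold or more from the mean of the other 4 libraries and outside their range was 0.888% in nTg female 1, 1.38% in Tg female 1, 4.34% in Tg female 2, 0.517% in Tg male 1 and 2.31% in Tg male 2. Against the 2 Tg female libraries alone, 158 of 4626 genes (3.42%) stood apart in this way in nTg female 1. Across libraries, whatever their group, few genes in members were set fully on or off. Of 2822 genes detected in 20% or more of members in at least 1 library, 11 (0.39%) were detected in 1% or fewer in another, a rule chosen after values had been seen. They were Xist, Tsix, Eif2s3y, Uty and Ddx3y, which follow sex, and 6 others. Plppr1, a lipid phosphatase-related membrane protein of neurons, was detected in 40.9%, 0.261%, 29.3%, 0.265% and 41.4% of members. It was thus nearly absent from 1 Tg female and 1 Tg male library and common in the other 3. Cyp1a1, the cytochrome P450 induced by the aryl hydrocarbon receptor, was detected in 28.8% of members of the library labelled nTg female 1, with 191 UMIs in all, and in 0 to 0.531% elsewhere. There it was found in 23.1% of the remaining endothelium, 7.34% of arterial-like and 0.629% of endocardial-like nuclei.

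The peptide transporter Slc15a2 was detected in 31.7%, 12.8%, 15.9%, 27.9% and 0.398% of members, nearly absent from Tg male 2. Csprs was detected in 22.1% of members of Tg female 2 and 11.2% of Tg male 2, and in 0.522 to 0.712% of the others. Pclo, for a presynaptic scaffold protein, ranged from 0.261% in Tg female 1 to 21.8% in Tg male 1. Trpm3 was detected in 29.8% of members of Tg female 1 and in 0 to 1.44% of the others. In the remaining endothelium and in arterial-like nuclei each of the 6 genes was highest in the same library as in members, except Slc15a2 in arterial-like nuclei (22.3% in Tg male 1 and 19.2% in nTg female 1). In endocardial-like nuclei Trpm3 was found in 3.70 to 8.81% in every library, and Pclo was highest in Tg female 2 (8.64%) rather than Tg male 1 (7.46%), and Slc15a2 in Tg male 1 (13.8%) rather than nTg female 1 (10.1%).

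**Figure D5:**
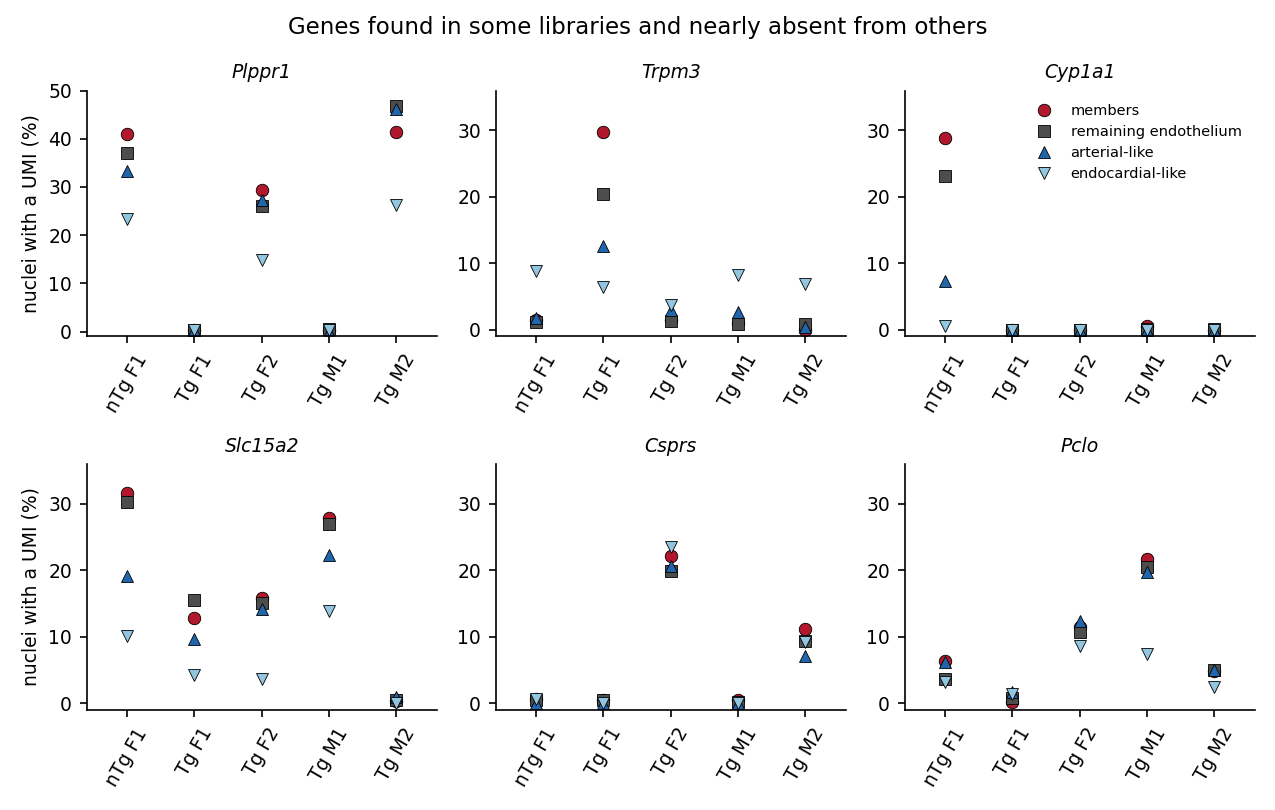
Share of nuclei with a UMI (vertical axis, %) for 6 genes in 4 endothelial populations, by library (horizontal axis). Plppr1 is near 0 in Tg female 1 and Tg male 1 in all 4 populations, and Cyp1a1 is found in nTg female 1, in 28.8% of members and 0.629% of endocardial-like nuclei.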

How the data were processed

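Nuclear RNA was measured in droplet libraries. The deposited values are raw UMI counts per gene and barcode, made by the authors with Cell Ranger 7.0.0 per the file headers, on mm10 per the submitters' processing notes. Whether counting used strand is not given in the sources used here. Of 8 matrices, 3 repeated the values of others and did not match their own barcode lists, and were not analysed here. The members and the gene lists were chosen with earlier results of these data known, so levels of members against other endothelium are descriptions without a test.

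UMIs were summed per library and population, and ratios used CPM plus a pseudocount of 1. Sexes were compared in the 4 Tg libraries with edgeR 4.0.16 (quasi-likelihood, TMM, Benjamini-Hochberg threshold 0.05) in R 4.3.3, for members and for the interaction with the remaining endothelium, with library as a block. DESeq2 1.42.0 was an alternative. Shares were compared by exact permutation tests (scipy 1.17.1). Doublets were kept in the main analysis. As an alternative, Scrublet calls (scanpy 1.11.5) were removed, and in Tg female 2, where it called 0%, the top 5% of scores.

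Named genes were the rule's genes, the 15 highest and 10 lowest ratios at 50 CPM or more, up to 5 called genes per direction of each sex test with 10 CPM or more and no overlap, sex-linked genes and Ccna2, and of each list the most abundant, the called and those past 2-fold in every library. Not all genes that met these criteria are described above. Other named genes of a list were chosen after their values were seen.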

Additional observations from a re-analysis of the deposited data

Results flagged for a closer look

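For 6 genes the difference between Tg females and Tg males was not the same in members as in the remaining endothelium, by the interaction test of edgeR with Benjamini-Hochberg adjustment. The log2 sex effect in members minus that in the remaining endothelium was 8.22 for Chl1 (adjusted p = 0.0263), 7.36 for Cadm2 (0.0135), 3.07 for Runx1 (0.0123), 2.8 for Slc9a9 (2.56e-04), 2.8 for Nkain2 (0.0268) and −2.69 for Nrxn3 (0.0263).

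Slc9a9, a sodium/proton exchanger of endosomes, had 58.8 and 67.7 CPM in female and 9.26 and 5.88 CPM in male members, beside 37.1, 59.6, 33.7 and 53.0 CPM in the remaining endothelium, and it was called whichever library was left out. With DESeq2 neither Slc9a9 (adjusted p = 0.802) nor Runx1 was called. None of the 6 passed the filter on low counts once nuclei with 2 or more fibroblast, macrophage or Schwann UMIs were left out, so none was tested there. The macrophage genes F13a1 and Mrc1 were also called by the interaction test with all members, in the direction of Slc9a9. Runx1, a transcription factor of blood formation, had 36.8 and 47.8 CPM in female and 4.63 and 2.94 CPM in male members, and its adjusted p was 0.0587 without Tg male 2. The other 4 rested on few nuclei, and Chl1 and Cadm2 had 0 UMIs in male members, so their fitted values depend on the prior count and are no bound. The UMIs of Chl1 lay in 1 nucleus of each Tg female library, and of the 20 and 39 UMIs of Nkain2 there, 15 and 19 lay in 1 nucleus. Of the 19 UMIs of Nrxn3 in Tg male 2, 12 lay in 1 nucleus. Chl1, Cadm2, Nkain2 and Nrxn3 each lost the call without at least 1 library, with adjusted p up to 0.786, 0.945, 0.577 and 0.360.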

How the results depend on the processing

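The number of members was 489 with at least 3 markers, 781 with the rule applied to nuclei thinned to 1000 UMIs, 701 without Car8 and 881 without nuclei holding 2 or more fibroblast, macrophage or Schwann UMIs. The female minus male share was 0.430 points after thinning, -1.35 with at least 3 markers, -3.90 without nuclei with other cell types' UMIs, and ran from -2.60 to 0.950 with 1 library left out. Genes 2-fold or more higher in every library numbered 35 with at least 3 markers, 35 without the arterial and endocardial limits, 10 with a pseudocount of 10 CPM and 33 against nuclei with 0 markers. Genes 2-fold or more lower numbered 51, 16, 13 and 67 under the same settings, and 77 after thinning, 15 without nuclei with other cell types' UMIs, 47 without Car8, 98 against all gated non-members and 15 against a comparator without smooth muscle UMIs. Reln and Mmrn1 turned to −0.62 and −1.12 after thinning, −0.87 and −1.23 without lymphatic genes, and −2.20 and −2.75 against all gated non-members, where Vwf was −0.20. Without smooth muscle UMIs in the comparator, Myh11 was 2.82, Acta2 3.35, Carmn 2.78, Tagln 2.74 and Lmod1 1.52. Of 726 other settings for levels of named genes, 601 kept direction and size and 12 reversed.

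Sex calls numbered 24 with at least 3 markers (15 of the 40 among them), 18 after thinning (14), 64 without lymphatic genes (40), 245 without a filter on low counts (40) and 71 to 262 with 1 library left out. Interaction calls numbered 11 without nuclei with other cell types' UMIs, 0 with DESeq2, 33 without a filter, 6 with at least 10 UMIs in every library and 13 to 62 with 1 library left out. The cause of these changes was not tested. With the replicate number as a block, 164 genes were called, all 40 among them. The deviations of same-numbered libraries had r = 0.0945 over 7645 genes. Whether same-numbered libraries share more than a number was not tested, and this value cannot show it. Plppr1 was detected in 0.261% and 0.265% of members of Tg female 1 and Tg male 1, and in 29.3% and 41.4% of Tg female 2 and Tg male 2. For Csprs the shares were 0.52% and 0.53%, and 22.1% and 11.2%. Slc15a2, Pclo, Trpm3 and Cyp1a1 did not divide by number. In nTg female 1, Plppr1 was detected in 40.9% of members and Csprs in 0.712%, so Plppr1 divided by number only among the 4 Tg libraries. Summed members held 502194 to 1079464 UMIs per library, which limits genes of a few CPM to a few UMIs.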

Other observations

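Interferon response genes in members had 2 of 11 higher (Usp18 and Stat2) and 1 lower (Rsad2) than the remaining endothelium in every library, beside the 10.2% and 10.5% of all genes. Between the sexes 13 of these genes were tested, none was called by edgeR, 3 had an unadjusted p under 0.05, and 10 were higher in both Tg female libraries than in both Tg male libraries, with a median log2 difference of 0.31. Over all 9667 genes tested, 903 had an unadjusted p under 0.05 and 2291 were higher without overlap.

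Single nuclei carried some of the values in members. In Tg male 2, 92 of 93 Ccna2 UMIs lay in 1 nucleus. In nTg female 1, 83 of 108 UMIs of Cdh19 and 125 of 162 UMIs of Kcnq5 lay in 1 nucleus each.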
